A study of Medicago truncatula with 6 samples.

Results

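The features described here are the genes of the plastid genome of Medicago truncatula and their annotated promoters, taken as every feature whose ID contains MtrunA17CPg. There were 372 of them among 400216 annotated features, namely 134 genes, 128 promoters of 1 kb and 110 promoters of 3 kb, and 6 of the genes had no promoter feature. The counts came from small RNA libraries of mock-treated roots, 3 libraries with RNAi against SKI3 and 3 with RNAi against GUS. SKI3 belongs to the Superkiller complex, which feeds RNA to the cytoplasmic exosome. GUS, a reporter gene from bacteria, serves as the RNAi control. The genotype label of every library in both groups is WT, and the labels give neither the age of the plants nor how the RNAi was introduced. Only 1 of the 6 tables names a read length, 21 to 22 nt, and the other tables were taken to hold the same class. Nothing in the labels says that the libraries came from separate plants, so the spread between them may be partly technical.

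Root plastids are mostly non-green organelles that store starch and make amino acids and fatty acids, and they keep the same small circular genome as chloroplasts. That genome carries genes for photosynthesis, for the plastid ribosome and RNA polymerase, and for ribosomal and transfer RNAs, many of them transcribed together in long precursors that are then cut and trimmed. Short RNA fragments are known to persist from plastid transcripts, among them footprints of proteins that bind and protect RNA ends. The Dicer enzymes that make siRNAs in plants act outside plastids, and copies of plastid DNA are common in plant nuclear genomes. The 134 gene IDs were compared with the RefSeq gene table of the species, which lists 109 plastid genes, of which 76 are protein-coding, 29 are tRNA genes and 4 are rRNA genes. None of the IDs matched (0 of 134), so genes are given by ID, without a name, role, length or position. A count is therefore not a level per length, and an order by counts is not an order of transcript abundance.

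Plastid features were a small part of every library. Library totals ran from 2324061 to 2851473 counts in SKI3 RNAi and from 2168297 to 3974092 in GUS RNAi, and a floor of 3 counts corresponds to between 0.755 and 1.38 CPM (counts scaled to a fixed sum by the total of the table). The 134 genes held 0.0691%, 0.0665% and 0.0609% of the counts in SKI3 RNAi replicates 1, 2 and 3, against 0.0458%, 0.0599% and 0.0514% in GUS RNAi replicates 1, 2 and 3. All 3 SKI3 RNAi libraries thus lay above all 3 GUS RNAi libraries. The means were 0.0655% ± 0.00420 in SKI3 RNAi and 0.0524% ± 0.00713 in GUS RNAi (SD, n = 3 each), a ratio of 1.25. The closest pair, SKI3 RNAi replicate 3 and GUS RNAi replicate 2, differed by less than the 95% Wilson interval of a single library, whose half-width was up to 0.00332 percentage points. Intervals cover counting error only and take the counts as independent. Features share counts, as described below, and molecular identifiers are not mentioned, so the intervals may be too narrow. No p is given for these sums, because they run over members chosen with earlier results of these data known. An exact permutation test of 3 libraries against 3 could also not go below 0.1.

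Promoter features showed the same order of the groups. Promoters of 1 kb held 0.0587%, 0.0549% and 0.0464% of the counts in SKI3 RNAi replicates 1, 2 and 3, against 0.0354%, 0.0455% and 0.0361% in GUS RNAi, with a ratio of means of 1.37. Promoters of 3 kb held 0.0217%, 0.0201% and 0.0179% in SKI3 RNAi, against 0.0135%, 0.0176% and 0.0175% in GUS RNAi, with a ratio of 1.23. In both promoter classes the groups did not overlap, and the lowest SKI3 RNAi library lay within counting error of the highest GUS RNAi library. When the library sizes were scaled with TMM factors, a setting chosen after seeing the data, the groups still did not overlap for genes and for 1 kb promoters, and they overlapped for 3 kb promoters. The 3 classes are not separate measurements, since genes and promoters hold many of the same counts, as described below.

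**Figure D1:**
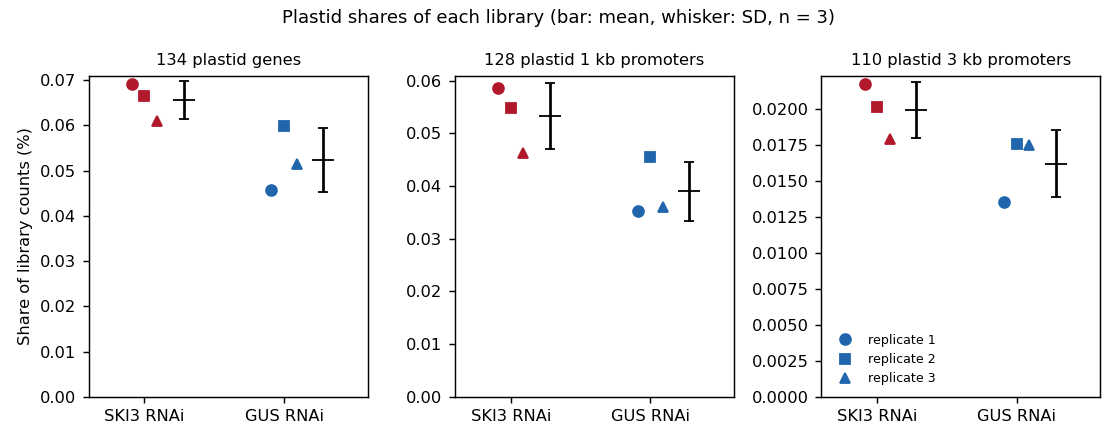
Share of each library's counts (percent, y axis from 0) held by plastid genes, 1 kb promoters and 3 kb promoters in SKI3 RNAi and GUS RNAi roots. Points are libraries, with the symbol giving the replicate number, and the bar and whisker are mean and SD of 3 libraries. In each panel the 3 SKI3 RNAi points lie above the 3 GUS RNAi points, by a narrow margin between SKI3 RNAi replicate 3 and GUS RNAi replicate 2.

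A share of the library also depends on what else was counted. The 10 most counted features of all classes, none of them plastid, took 11.9%, 8.87% and 15.6% of the counts in SKI3 RNAi replicates 1, 2 and 3, against 17.3%, 13.0% and 21.1% in GUS RNAi. With these 10 features left out of the totals, plastid genes held 0.0784%, 0.0730% and 0.0722% in SKI3 RNAi, against 0.0553%, 0.0689% and 0.0652% in GUS RNAi. The groups then remained apart for genes and for 1 kb promoters, while the 3 kb promoters overlapped, and the ratio of means for genes was 1.18. Without MtrunA17CPg0493441, the plastid gene with the most counts, the plastid gene share was 0.0598%, 0.0576% and 0.0499% in SKI3 RNAi, against 0.0407%, 0.0505% and 0.0414% in GUS RNAi, and the groups overlapped.

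Mitochondrial genes are the class most like the plastid genes, and both classes were compared inside each library. Plastid genes made up 8.03%, 8.40% and 6.55% of all organelle gene counts in SKI3 RNAi replicates 1, 2 and 3, against 4.58%, 5.35% and 5.97% in GUS RNAi. The groups did not overlap, with means of 7.66% ± 0.981 in SKI3 RNAi and 5.30% ± 0.697 in GUS RNAi (SD, n = 3 each). Mitochondrial genes, the other part of that ratio, held 0.795% ± 0.0721 of the library in SKI3 RNAi and 0.941% ± 0.126 in GUS RNAi, and their groups overlapped. In every library 2 mitochondrial genes held between 92.95% and 95.9% of the mitochondrial gene counts. Without them the plastid genes made up 57.6%, 56.5% and 56.3% in SKI3 RNAi, against 54.0%, 56.2% and 53.3% in GUS RNAi, and the ratio of means was 1.04, against 1.45 with them. The remaining mitochondrial genes held 0.0498% ± 0.00214 of the library in SKI3 RNAi and 0.0436% ± 0.00402 in GUS RNAi (SD, n = 3 each), and these groups did not overlap either. The margin was narrow, with 0.0474% in SKI3 RNAi replicate 3 and 0.0467% in GUS RNAi replicate 2. No counting interval was computed for these remaining genes. A higher mean library share in SKI3 RNAi was therefore measured for the less counted mitochondrial genes too. Mitochondrial 1 kb promoters held 0.0699% ± 0.0106 in SKI3 RNAi and 0.0549% ± 0.00894 in GUS RNAi (SD, n = 3 each), a ratio of 1.27, with groups that overlapped. Those of 3 kb held 0.725% ± 0.129 in SKI3 RNAi and 0.988% ± 0.191 in GUS RNAi (SD, n = 3 each), again with overlap. Fragments of transposable elements annotated on the plastid genome, 47 features outside the rule used here, held 0.00222% ± 0.000234 in SKI3 RNAi and 0.00186% ± 0.000236 in GUS RNAi, and their groups overlapped.

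Counts were spread unevenly over the plastid genes. Over all 6 libraries together, 13 genes had no count, 36 had 1 to 9 counts, 62 had 10 to 99 and 23 had 100 or more, with a median of 19 counts per gene. The 8 genes with the most counts held 51.05% of the 10018 plastid gene counts. For 1 kb promoters, 5 had no count and 10 had 100 or more. For 3 kb promoters, 15 had no count and 5 had 100 or more, and a single one, that of MtrunA17CPg0493461, held 27.3% of their 3083 counts.

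MtrunA17CPg0493441 held the most counts of all plastid features. It had 93.6, 89.1 and 110.3 CPM in SKI3 RNAi replicates 1, 2 and 3, against 50.8, 94.1 and 99.8 CPM in GUS RNAi. GUS RNAi replicate 1 was low, and the other 5 libraries lay close together, so the groups overlapped. In edgeR's quasi-likelihood test its log2 fold change was 0.17 (standard error, SE, 0.259), at an adjusted p of 0.898, and it was -0.093 without replicate 1 of GUS RNAi, 0.010 without replicate 3 of SKI3 RNAi and 0.38 without replicate 3 of GUS RNAi. Of the plastid gene counts it took 15.0% ± 2.68 in SKI3 RNAi and 15.4% ± 4.16 in GUS RNAi (SD, n = 3 each).

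MtrunA17CPg0492191 came next. It had 94.0, 75.3 and 65.1 CPM in SKI3 RNAi, against 54.9, 59.0 and 43.6 CPM in GUS RNAi. Every SKI3 RNAi library lay above every GUS RNAi library. The log2 fold change in edgeR was 0.48 (SE 0.191), with an unadjusted p of 0.0295 and an adjusted p of 0.744, so it did not pass the threshold of 0.05. As a part of the plastid gene counts it was 11.9% ± 1.53 in SKI3 RNAi and 10.1% ± 1.77 in GUS RNAi, and on that scale the groups overlapped.

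MtrunA17CPg0492711 had the smallest p of all tested plastid features. It had 26.3, 23.7 and 16.1 CPM in SKI3 RNAi, against 9.56, 17.5 and 10.3 CPM in GUS RNAi. The groups overlapped, because GUS RNAi replicate 2 lay above SKI3 RNAi replicate 3. The edgeR log2 fold change was 0.76 (SE 0.269), at an unadjusted p of 0.0177 and an adjusted p of 0.744. MtrunA17CPg0493131, which was named after its values were seen, had 19.6, 16.4 and 17.2 CPM in SKI3 RNAi, against 12.3, 13.4 and 9.75 CPM in GUS RNAi, without overlap. Its log2 fold change was 0.50 and its adjusted p 0.749 in edgeR.

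Other genes with many counts showed little difference between the groups or a single high library. MtrunA17CPg0492671 had 42.1, 33.1 and 22.6 CPM in SKI3 RNAi, against 28.7, 42.0 and 27.0 CPM in GUS RNAi, and a log2 fold change of -0.08 (SE 0.244). MtrunA17CPg0492681 had 40.3, 30.1 and 20.3 CPM in SKI3 RNAi, against 25.9, 38.7 and 26.4 CPM in GUS RNAi, and a log2 fold change of -0.09 (SE 0.253). Both genes spread as widely within a group as between the groups. MtrunA17CPg0492381 had 19.3, 15.1 and 51.7 CPM in SKI3 RNAi, against 23.4, 23.5 and 21.5 CPM in GUS RNAi. SKI3 RNAi replicate 3 alone was high, and without it the log2 fold change was -0.56, against 0.26 with all libraries. MtrunA17CPg0492541 and MtrunA17CPg0492531 had near-equal counts, and the log2 fold changes were 0.26 for MtrunA17CPg0492541 and 0.20 for MtrunA17CPg0492531, with SEs of 0.264 and 0.255. Without GUS RNAi replicate 1 the values were 0.062 for MtrunA17CPg0492541 and 0.010 for MtrunA17CPg0492531, and without GUS RNAi replicate 3 they were 0.57 and 0.48. The lowest log2 fold change of any tested plastid feature, -0.17 (SE 0.315), was that of MtrunA17CPg0493101, which had 4.56, 4.73 and 7.66 CPM in SKI3 RNAi, against 5.79, 6.92 and 5.45 CPM in GUS RNAi. With SKI3 RNAi replicate 1 left out it was -0.028, and with replicate 3 of that group left out it was -0.52. The 1 kb promoter of MtrunA17CPg0493091 differed from MtrunA17CPg0493101 by at most 1 count in any library, with 14, 11 and 20 counts in SKI3 RNAi, against 23, 15 and 19 counts in GUS RNAi, and a log2 fold change of -0.14 (SE 0.308, adjusted p 0.937 in edgeR), which ran from -0.46, without replicate 3 of SKI3 RNAi, to -0.0037, without replicate 2 of SKI3 RNAi.

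**Figure D2:**
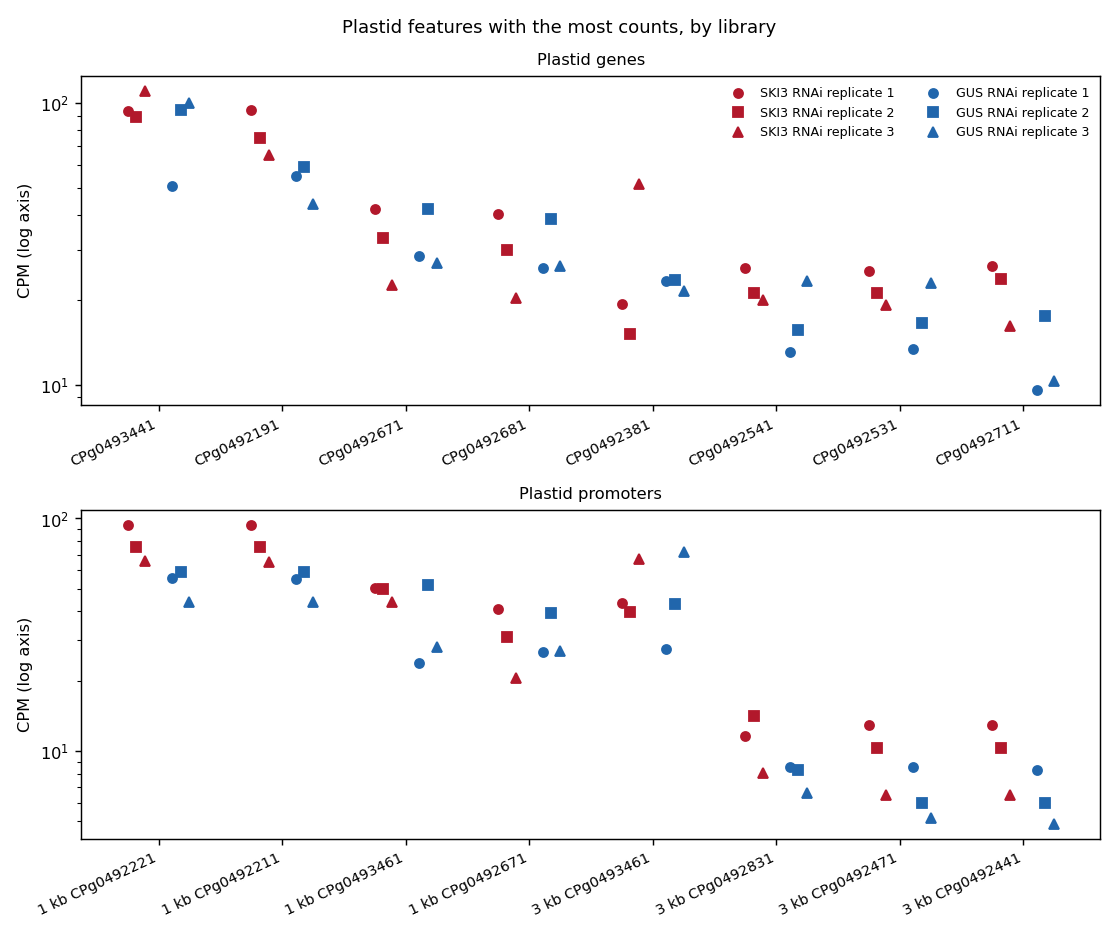
CPM (log axis) of the 8 plastid genes (upper panel) and the 4 plastid promoters of each length (lower panel) with the highest mean CPM, in each of 3 SKI3 RNAi libraries (red, left) and 3 GUS RNAi libraries (blue, right). IDs are shortened by their common start. The gene CPg0492191 and the 1 kb promoters of CPg0492211 and CPg0492221 have the same pattern of points, with all SKI3 RNAi libraries at or above 65.1 CPM and all GUS RNAi libraries at or below 59.0 CPM.

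The 1 kb promoters of MtrunA17CPg0492221 and MtrunA17CPg0492211, with the most counts of all plastid promoters, nearly repeated the values of a gene with another ID. The 1 kb promoter of MtrunA17CPg0492221 had 268, 175 and 171 counts in SKI3 RNAi replicates 1, 2 and 3, against 220, 128 and 153 counts in GUS RNAi. The 1 kb promoter of MtrunA17CPg0492211 had 267, 175 and 170 counts in SKI3 RNAi, against 218, 128 and 152 counts in GUS RNAi. The gene MtrunA17CPg0492191 differed from these promoters by at most 2 counts in any library. The genes to which the promoters belong held far fewer counts over all 6 libraries, 34 for MtrunA17CPg0492221 and 4 for MtrunA17CPg0492211, against 1115 and 1110 in their 1 kb promoters. The log2 fold change of both promoters was 0.48, with adjusted p-values of 0.744 in edgeR. With near-equal counts, these values are not separate from that of MtrunA17CPg0492191.

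Such repetition was common among the well counted members. Of 38 plastid features with at least 100 counts in all, 20 fell into 7 sets whose members had counts within 3, or within 10%, of another member of the set in every library, and 18 stood alone. The 38 features thus held 25 distinct count profiles. MtrunA17CPg0492671, its own 1 kb promoter and MtrunA17CPg0492681 formed one set. Another set joined MtrunA17CPg0492531, MtrunA17CPg0492541 and the 1 kb promoters of MtrunA17CPg0492541 and MtrunA17CPg0492551. A set with lower counts joined MtrunA17CPg0492431 with the 3 kb promoters of MtrunA17CPg0492441, MtrunA17CPg0492451 and MtrunA17CPg0492471, and the first of these promoters had 37, 24 and 17 counts in SKI3 RNAi, against 33, 13 and 17 counts in GUS RNAi. Of the 10 plastid 1 kb promoters with at least 100 counts, 8 belonged to a gene with less than 0.5 times their counts, and 4 to a gene with fewer than 10.

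For most genes compared, the counts of the 3 kb promoter did not include all those of the 1 kb promoter. Of 88 genes with both lengths and at least 10 counts in the 1 kb promoter, 62 had fewer counts in the 3 kb promoter, 70.5%. For the other genes the counts do not decide this. MtrunA17CPg0493461 is a case in which both lengths were well filled. Its 1 kb promoter had 144, 116 and 114 counts in SKI3 RNAi, against 95, 112 and 98 counts in GUS RNAi. Its 3 kb promoter had 123, 92 and 175 counts in SKI3 RNAi, against 109, 93 and 251 counts in GUS RNAi. The sum of both exceeded the counts of the gene MtrunA17CPg0493441 by 0 to 2 in every library. Without positions, it was not tested whether both promoters and that gene hold the same reads. MtrunA17CPg0493461 itself had 3 counts over all libraries. The 3 kb promoter with the next most counts, that of MtrunA17CPg0492831, had 33, 33 and 21 counts in SKI3 RNAi, against 34, 18 and 23 counts in GUS RNAi, with a log2 fold change of 0.42 (SE 0.260, adjusted p 0.839 in edgeR), and its CPM overlapped between the groups. Without replicate 2 of SKI3 RNAi the log2 fold change was 0.26.

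The 1 kb and 3 kb promoters of MtrunA17CPg0493461 varied differently between libraries. The 3 kb promoter held 46.1%, 44.2% and 60.6% of the sum of both in SKI3 RNAi, against 53.4%, 45.4% and 71.9% in GUS RNAi. Replicate 3 was the highest in both groups, and the groups overlapped. In edgeR the log2 fold change was 0.41 (SE 0.255, adjusted p 0.839) for the 1 kb promoter and -0.023 (SE 0.357, adjusted p 0.996) for the 3 kb promoter. That of the 1 kb promoter was 0.19 without GUS RNAi replicate 1 and 0.70 without GUS RNAi replicate 2.

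**Figure D3:**
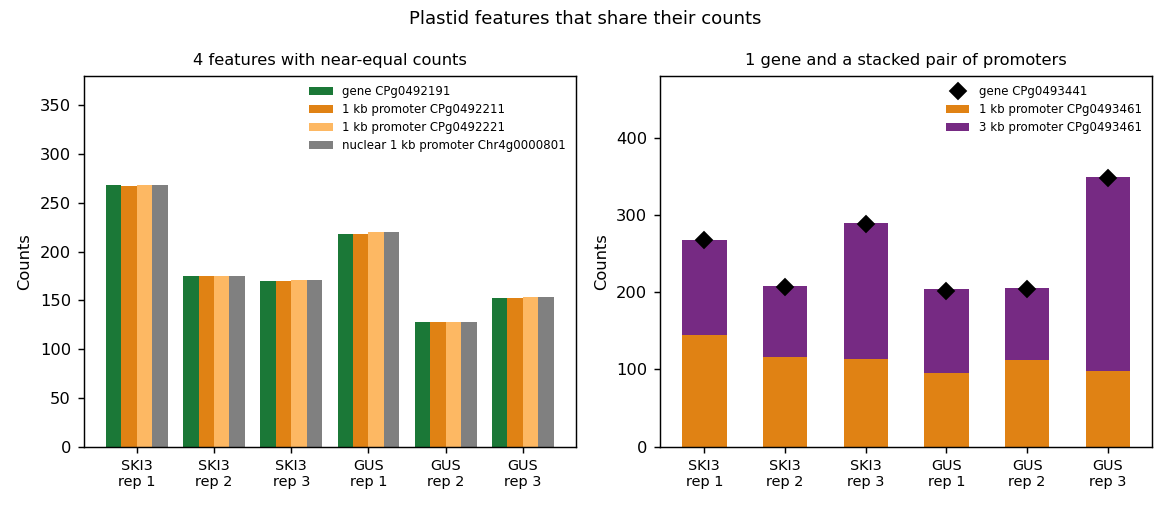
Counts (y axis) in each of 3 SKI3 RNAi and 3 GUS RNAi libraries. On the left, bars show the plastid gene CPg0492191, the plastid 1 kb promoters of CPg0492211 and CPg0492221 and the nuclear 1 kb promoter of Chr4g0000801, which differ by at most 2 counts in any library. On the right, stacked bars show the 1 kb and 3 kb promoters of CPg0493461 and diamonds show the gene CPg0493441, which lies 0 to 2 counts below the top of the stack.

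Some plastid counts also appeared in nuclear features. The 1 kb promoter of MtrunA17CPg0492221 had the same count in each of the 6 libraries as the 1 kb promoters of MtrunA17Chr4g0000801 and MtrunA17Chr4g0016271 on chromosome 4 and of MtrunA17Chr6g0466251 on chromosome 6, as the IDs give the chromosomes. Within 3 counts per library it matched 9 nuclear 1 kb promoters. The 1 kb promoter of MtrunA17CPg0493461 was matched to within 1 count by that of MtrunA17Chr4g0016321 on chromosome 4, and its 3 kb promoter to within 2 counts by that of MtrunA17Chr7g0221971 on chromosome 7. At lower counts, MtrunA17CPg0492501 had 45, 41 and 31 counts in SKI3 RNAi, against 35, 27 and 46 counts in GUS RNAi, and the 1 kb promoter of MtrunA17Chr4g0016021 had the same 6 counts. Of the 9 plastid features with at least 500 counts, 7 had another feature within 3 counts in every library and 5 had one outside the plastid genome. Over the other 4145 features with at least 500 counts, 18.2% had another feature that close. These shares are not like for like, since a fixed tolerance of 3 counts is stricter for features with more counts. The highest total was 1516 among plastid features and 1108017 over all features. Among the plastid matches, MtrunA17CPg0492191 and the 1 kb promoters of MtrunA17CPg0492211 and MtrunA17CPg0492221 repeat each other. How reads with several alignments were counted is not given in the sources used here. For plastid features with such nuclear matches, RNA from the plastid genome and RNA from nuclear copies cannot be told apart. It was not tested whether matching features hold the same reads. Where they do, the table totals hold those reads more than once, and a share of counts is not a share of reads.

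Single plastid features were tested in one fit over all features. The filter on low counts kept 68 of the 372, namely 36 genes, 23 promoters of 1 kb and 9 promoters of 3 kb, which held 76.9% of the plastid counts. In edgeR's quasi-likelihood test 0 of the 68 had an adjusted p under 0.05, and 0% of all 48283 tested features did. The DESeq2 Wald test also gave 0. At an unadjusted p under 0.05 there were 5 of the 68 in edgeR, all higher in SKI3 RNAi, where 6.58% of all tested features reached that level, 3.57% higher and 3.01% lower. In the DESeq2 Wald test there were 4 of the 68, where 2.38% of all tested features reached that level. The 5 were MtrunA17CPg0492191, MtrunA17CPg0492711, MtrunA17CPg0493131 and the 1 kb promoters of MtrunA17CPg0492211 and MtrunA17CPg0492221. Of these, 3 had near-equal counts, namely MtrunA17CPg0492191 and both promoters. In edgeR the number was 0 of 68 when replicate 1 of SKI3 RNAi was left out, beside 7.21% of all features tested in that fit, and 0 of 75 when replicate 1 of GUS RNAi was, beside 5.3%. It was 1 of 75 without replicate 3 of GUS RNAi, beside 4.85%, and 8 of 76 without replicate 3 of SKI3 RNAi, beside 8.93%, which is near that background. With replicate 2 left out it was 5 of 73 for SKI3 RNAi, beside 4.99%, and 4 of 73 for GUS RNAi, beside 5.11%.

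Fold changes of the tested members were mostly small and above 0. The log2 fold change was above 0 in 28 of 36 genes and 29 of 32 promoters, beside 51.9% of all tested features. The median was 0.21 for genes and 0.37 for promoters, against 0.02 for all tested features, and values ran from -0.17 to 0.92. The highest, that of the 1 kb promoter of MtrunA17CPg0492741, rested on SKI3 RNAi replicate 1, with 32, 10 and 9 counts in SKI3 RNAi against 10, 16 and 3 counts in GUS RNAi. In 9 of the 68 the CPM of both groups lay fully apart, always with SKI3 RNAi higher, where 10.5% of all tested features lay apart in that direction and 3.6% in the other. That share is near the background. These figures cover members that passed a filter on counts and that partly repeat each other, so they do not describe all 372. With no filter, the median log2 fold change was 0.18 over the 121 genes and 0.30 over the 218 promoters with a count, against 0.07 over all features with a count. Without GUS RNAi replicate 1, in which the plastid share was lowest, the median of tested genes was 0.09.

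**Figure D4:**
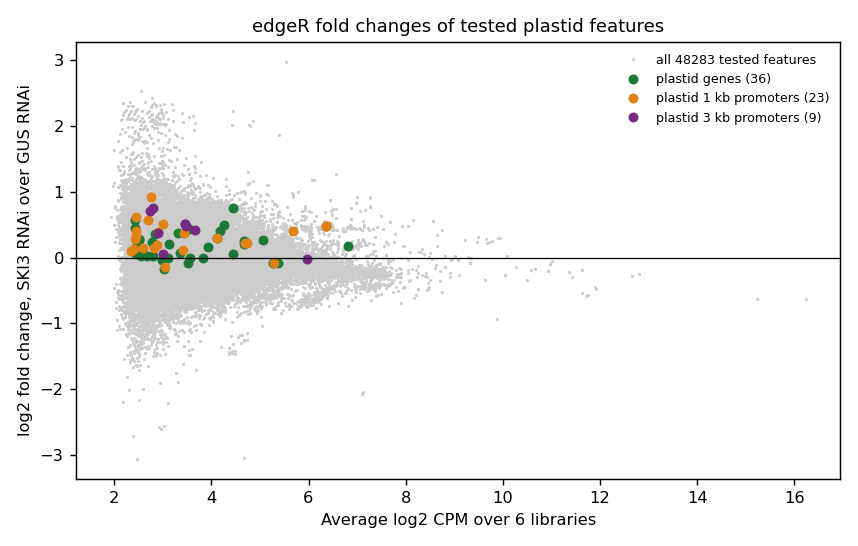
Log2 fold change in edgeR (SKI3 RNAi over GUS RNAi, y axis) against the average log2 CPM over 6 libraries (x axis) for all 48283 tested features (grey) and the 68 tested plastid features (coloured by class). The coloured points lie between -0.17 and 0.92, mostly above the line at 0 and inside the spread of the grey points.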

How the data were processed

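Each library has 1 table, in which the authors deposited unnormalized whole-number counts for the annotated features. Per the submitters' processing notes, the tools were cutadapt 2.10, Bowtie 1.3.1 and DESeq2 1.34.0, with no role given. The counter, the genome build, the strand setting and the treatment of reads with several alignments are not given in the sources used here. Per the file headers, 1 stray header line in the table of SKI3 RNAi replicate 3 names 21 to 22 nt reads. It was dropped, and since table totals may cover only that length class, they are not full library depths.

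CPM and shares were computed from the table totals. Differences were tested on counts with edgeR 4.0.16 in R 4.3.3 (TMM factors, filterByExpr with a minimum count of 10, glmQLFit and glmQLFTest with group as the only term, Benjamini-Hochberg over all features tested). The standard error is the log2 fold change divided by the root of F. DESeq2 1.42.0 was an alternative. The scripts were tested on simulated counts.

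The features named are the 8 plastid genes, 4 promoters of 1 kb and 4 promoters of 3 kb with the highest mean CPM, any feature past the threshold, and the 3 tested plastid features with the smallest p in each direction. Others are named where a count of few features or a match in counts singled them out after their values were seen. The members and lists were chosen with earlier results of these data known. The IDs carry no gene names, so the RNAi target could not be used to check the labels, and plastid genes could not be grouped by function. No sequences are printed, since no genome of the files' build was used here.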

Additional observations from a re-analysis of the deposited data

How the results depend on the processing

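The difference in each plastid share (SKI3 RNAi minus GUS RNAi) stayed above 0 in every alternative run on it, and moved by less than 1 SD. Leaving out the 2 most counted mitochondrial genes puts the share of organelle gene counts on another base, so that 2.28 percentage points there go with a ratio of means of 1.04, against 2.36 and 1.45 with them. Leaving out the most counted plastid gene from the gene share, leaving out the 2 most counted mitochondrial genes, and scaling the totals with TMM factors were chosen after seeing the data. Leaving out 1 library at a time, the difference ran from 0.00985 to 0.0169 percentage points for genes and from 0.0116 to 0.0178 for 1 kb promoters. It ran from 0.0024 to 0.00475 for 3 kb promoters, and from 1.99 to 2.91 for plastid genes among organelle gene counts. The median log2 fold change was 0.35 for tested plastid genes with total counts alone, which also moved the median of all tested features to 0.16, against 0.017 with TMM factors. With 1 library left out it ran from 0.089 to 0.25 for genes and from 0.25 to 0.40 for promoters. The number of plastid features past the threshold was 0 in all alternatives. Over all features it was 346 with no filter, and with 1 library left out it ran from 0 to 492. The 492 arose without replicate 1 of SKI3 RNAi, and 2 without its replicate 3. The causes were not tested.

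Of 216 refitted log2 fold changes of the 18 named features, 16 changed sign, none with an adjusted p under 0.05. With total counts alone MtrunA17CPg0492671 was at 0.063, MtrunA17CPg0492681 at 0.057, and the 1 kb promoter of MtrunA17CPg0492671 at 0.059. With 1 library left out these 3 features ran from -0.31 to 0.081, from -0.36 to 0.088 and from -0.35 to 0.090, with the positive values without replicate 3 of SKI3 RNAi or replicate 2 of GUS RNAi. MtrunA17CPg0493441 ran from -0.093, without replicate 1 of GUS RNAi, to 0.38. MtrunA17CPg0492381 ran from -0.56, without replicate 3 of SKI3 RNAi, to 0.57. The 3 kb promoter of MtrunA17CPg0493461 was at 0.12 with total counts alone and 0.045 with the replicate block, and ran from -0.37 to 0.47 with 1 library left out. To check for pairing, the deviation of each library from its group mean was correlated with that of the library of the same number in the other group, which gave 0.0710, 0.190 and 0.251 over the tested features for replicates 1, 2 and 3. Replicate numbers are not stated to pair libraries, so the libraries were treated as sharing only a number. All 6 libraries correlated best with the library of their own number, which is a hint from the data and not from the design. With the replicate block, 0 plastid features passed the threshold and 5 of 68 had an unadjusted p under 0.05, beside 7.97% of all tested features, against 6.58% without it. Most plastid features had too few counts for a test, and 304 of 372 were left out by the filter.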
